A study of Mus musculus with 6 samples.

Results

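The 10 genes described here encode transcription factors of striatal projection neurons: Meis2, Six3, Zfp503, Rarb, Bcl11b, Foxp1, Foxp2, Ebf1, Isl1 and Ikzf1. They were taken by name from a table of 33084 genes counted by RNA sequencing of mouse forebrain, and all 10 were among the 19616 genes with enough counts to test. The forebrains were microdissected at embryonic day 15.5 from 3 embryos labelled wild-type (controls) and 3 embryos of the genotype Dyrk1a<DlxCre/+> (mutants). In the mutants Dyrk1a, a kinase gene active in neuronal development, is inactivated conditionally in the Dlx5 domain, where Cre is driven from a Dlx gene. That domain includes the precursors of the GABAergic neurons of the ventral forebrain. The genotype carries a wild-type allele (+) and cells outside the Dlx5 domain keep the gene. The labels do not say whether the controls carry the Cre driver or the conditional allele, so effects of those alleles cannot be told apart from the inactivation. Nor do they name litters, so the p-values measure only the spread between these embryos.

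Striatal projection neurons are the GABAergic output neurons of the striatum, born in the lateral ganglionic eminence of the ventral forebrain. They form a direct pathway, whose neurons carry the dopamine D1 receptor and project to the substantia nigra, and an indirect pathway, whose neurons carry the D2 receptor and project to the globus pallidus. Meis2, Six3, Zfp503 and Rarb act from the precursor stage or early in differentiation, Bcl11b, Foxp1 and Foxp2 are used broadly, Ebf1 and Isl1 serve the direct pathway, and Six3 and Ikzf1 serve the indirect pathway. Most of these factors are also made elsewhere in the forebrain, for example Bcl11b and Foxp1 in cortex and Foxp2 in cortex and thalamus.

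The genes lie on 7 chromosomes, with Foxp1 and Foxp2 both on chromosome 6, Ebf1 and Ikzf1 on chromosome 11 and Rarb and Zfp503 on chromosome 14. The members run from the compact Zfp503, 5.64 kb long with a single annotated transcript, to Foxp1, 597 kb long with 31. Their median span was 148 kb, against 25.4 kb over the 14789 tested protein-coding genes. Median GC content, taken from the longest transcript of each gene, was 46.3% for the members and 49.7% for tested protein-coding genes. Zfp503 stood at the top of the members with 58.9%, a value exceeded by 7.21% of tested protein-coding genes.

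Promoter windows from RefSeq (build GRCm38.p6, from 250 bases before to 50 bases after an annotated start) were matched for 9 of the 10 genes, in 13 windows; Foxp2 was not matched. These windows were searched on both strands for short motifs bound by proteins of the same families as the members. The site shown first carries the letter pattern of a retinoic acid response element, a motif bound by the receptor that Rarb encodes, and the others carry the core letters bound by MEIS proteins. Capitals mark the bases that the motif fixes, and each sequence runs 5′ to 3′ on the strand of its gene.
Rarb, retinoic acid response element, chr14:16575506-16575535, reverse strand: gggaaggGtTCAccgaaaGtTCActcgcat
Rarb, MEIS core, chr14:16575458-16575487, reverse strand: tttcattccgtgTGACAGaagtggtaggaa
Six3, MEIS core, chr17:85620683-85620712, forward strand: gattggcagggcTGACAGtgattggcagtg
Foxp1, MEIS core read on the opposite strand, chr6:99266649-99266678, reverse strand: gccagtgtctctCTGTCAgaggaggatagg

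The first motif, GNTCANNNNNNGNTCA, was present in 0.861% of 32851 promoter windows of the same length, and among the members in the Rarb window alone. That window belongs to a start inside the Rarb gene rather than to its outermost start. The windows of the printed Six3 and Foxp1 sites likewise belong to starts inside those genes. The MEIS core, TGACAG, was present in 19.2% of all windows and in 3 of the 13 member windows. A palindrome bound by EBF proteins, CCCNNGGG, was present in 13.7% of all windows and in 3 member windows, of Foxp1, Ikzf1 and Bcl11b. The forkhead core, TGTTTAC, was present in 3.65% of all windows and in 0 member windows. None of these matches was measured as a bound site here.

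Library totals ran from 24646616 to 38315004 counts. Values below are CPM (each library's counts scaled to a common total by the TMM method) or, where genes are compared with each other, RPKM (CPM per kb of exon). Dyrk1a itself, counted over the whole gene, stood at 169, 183 and 180 CPM in the controls and 186, 159 and 182 CPM in the mutants, so the count does not check the genotype labels. The ventral forebrain genes Dlx1 and Dlx2 were at 96.6 and 17.3 CPM in controls, while hindbrain and spinal cord genes averaged at most 0.44 CPM each in either genotype, with Hoxa2, Hoxc4 and Hoxb5 at 0. Replicate 3 of each genotype stood apart from the other 4 libraries on the first principal component, which held 37.4% of the variance. Genes of radial glia and proliferating cells were higher in those 2 libraries, by a median of 0.61 log2 units in the control and 0.53 in the mutant. The striatal effector genes described further on were lower there, by a median log2 difference of -0.49 and -0.60.

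No member passed the test between genotypes: in edgeR's quasi-likelihood fit, 0 of 10 were under 0.05 after Benjamini-Hochberg adjustment over all tested genes, where 0% of the tested genes were called. In 0 of 16 alternative fits was a member called, DESeq2 and limma-voom included. At an unadjusted p under 0.05 there was 1 member, Zfp503, against 1.92% of all tested genes. That share was 376 genes, and with the replicate number as a block it was 765 genes, with Zfp503 again the single member. Over the 16 alternatives, 7 gave 1 member at that level, 5 gave 0, 3 gave 2 and 1 gave 3. The last, with GC content and length trends removed and the replicate block, held Isl1, Zfp503 and Bcl11b, among 1047 of 19616 tested genes. The fits with 2 members had 1909 of 19616 genes (sample weights), 845 of 19616 (replicate 3 term) and 318 of 19983 (without control replicate 2). Those with 1 member had from 261 to 765 genes, and those with 0 members from 179 to 1544. Of the 10 fitted log2 fold changes (mutant over control), 7 lay above 0, where 47.5% of tested genes did. Their median was 0.06, against -0.01 over all tested genes. Leaving out mutant replicate 1 gave a median of -0.0047, and leaving out control replicate 2 gave 0.14. Because whole forebrain was sequenced, fewer cells of a type and less RNA per cell cannot be told apart, and neither can a change within the Dlx5 domain be separated from the level in other cells.

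**Figure D1:**
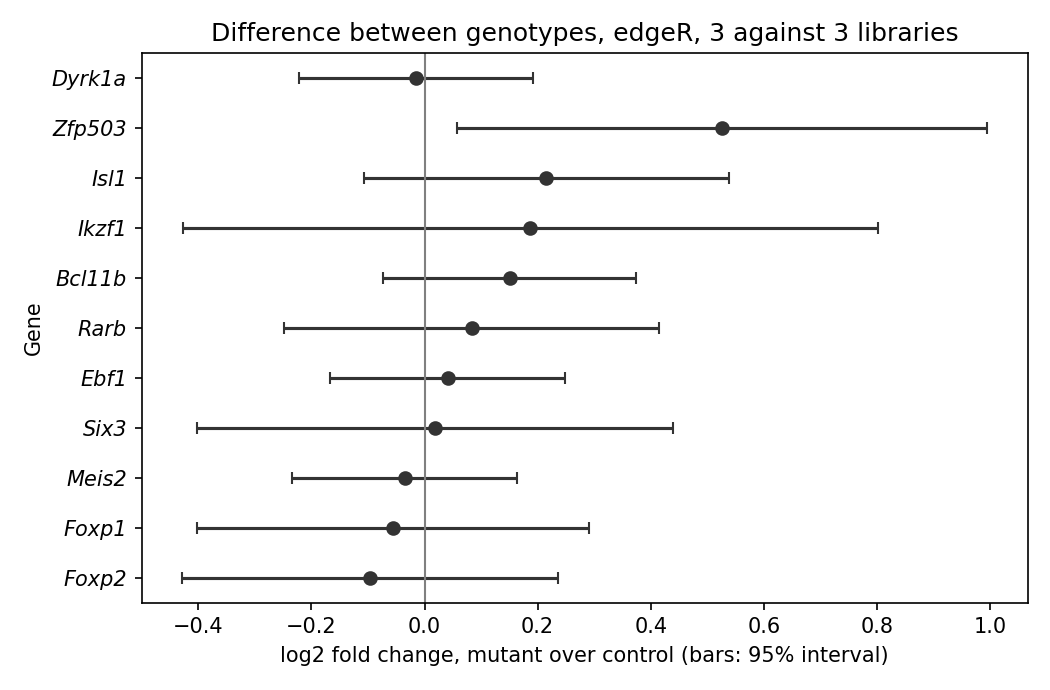
Fitted log2 fold change, mutant over control (horizontal axis), for each member and Dyrk1a (vertical axis), with points for the edgeR estimate and bars for its 95% interval from 3 libraries per genotype. The interval of Zfp503 runs from 0.06 to 1.00 before any adjustment for multiple tests, and the other 10 intervals cross 0.

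The members spanned a wide range of levels per length. Bcl11b was highest, at 37.3 ± 4.43 RPKM in controls, and Meis2 was next at 28.6 ± 1.48 RPKM (SD, n = 3). Their ranges over the 6 libraries did not meet, since the lowest Bcl11b value was 33.8 RPKM and the highest Meis2 value 30.1 RPKM. Isl1 followed at 11.6 ± 0.65 RPKM, Foxp1 at 9.59 ± 1.84, Foxp2 at 8.50 ± 1.06 and Ebf1 at 7.07 ± 0.27 RPKM (SD, n = 3). Each neighbouring pair among these 4 overlapped in range, whereas Isl1, at 11.1 RPKM or more, lay wholly above Foxp2 and Ebf1, whose highest values were 9.17 and 7.76 RPKM. Rarb at 3.28 ± 0.45 RPKM and Zfp503 at 2.49 ± 0.77 RPKM also overlapped, and so did Six3 at 1.04 ± 0.21 and Ikzf1 at 0.71 ± 0.14 RPKM (SD, n = 3). The ranges of Ebf1 and Rarb did not meet, nor did those of Zfp503 and Six3. In the mutants Rarb and Zfp503 stood at 3.46 ± 0.45 and 3.57 ± 0.24 RPKM, so the order of this pair was turned, within overlapping ranges.

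**Figure D2:**
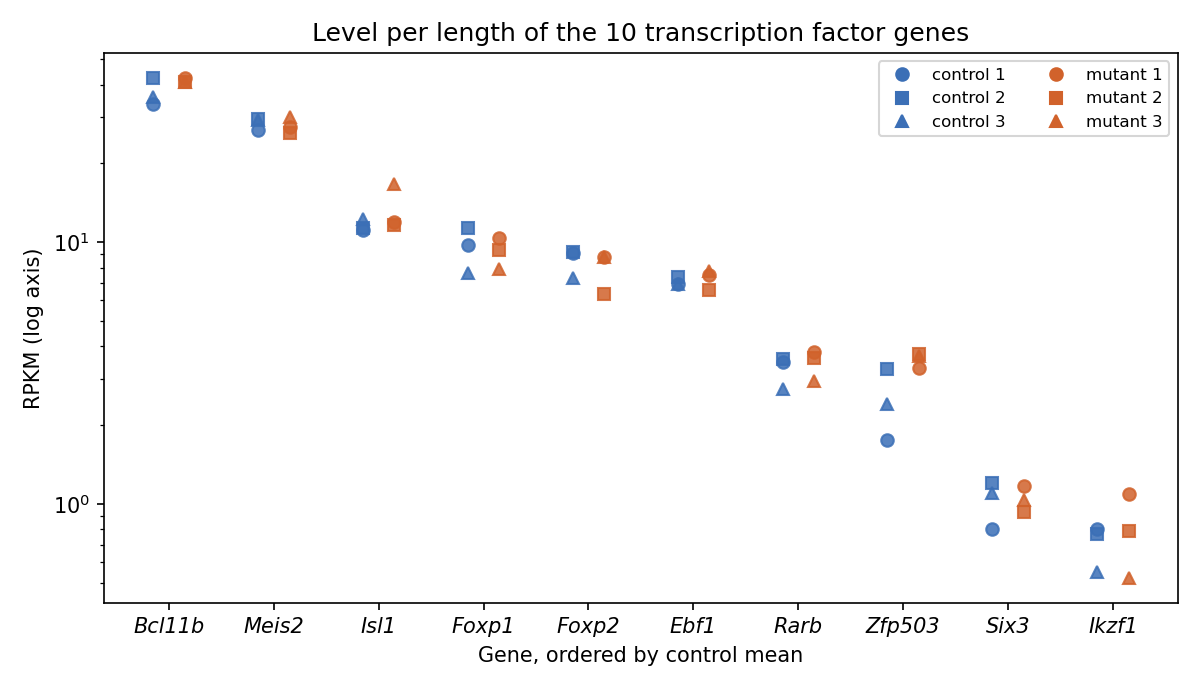
Level per length in RPKM on a log axis for the 10 genes, ordered by control mean; each point is 1 library, with color for genotype and shape for replicate number. Bcl11b and Meis2 lie above 26 RPKM in every library, and Six3 and Ikzf1 lie at 1.20 RPKM or less.

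Among the factors that act from the precursor stage, Meis2 encodes a TALE homeodomain protein of the lateral ganglionic eminence and its neurons. It lies on chromosome 2, 115863064 to 116065839 on the reverse strand of GRCm38 (ENSMUSG00000027210). Meis2 stood at 324, 356 and 354 CPM in the controls and at 333, 314 and 362 CPM in the mutants. Both the lowest and the highest value were in mutants, with every control between them. The log2 fold change was -0.04 ± 0.09 (SE), and its 95% interval ran from a change of -15.0% to one of 12.0%. Meis2 was the steadiest member: its highest library was 1.16-fold its lowest. The divergent long non-coding gene G630016G05Rik starts 1386 bases from the Meis2 start and had a log2 fold change of 0.22 ± 0.15 (SE) that did not pass. Its mutant libraries, at 8.54, 8.66 and 11.2 CPM, all lay above its controls, at 7.90 to 8.51 CPM, by a small margin, as those of 3.19% of tested genes did.

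Six3 encodes a homeodomain protein needed for indirect pathway neurons and, earlier, for the anterior forebrain. The gene is on chromosome 17, 85613608 to 85629302, forward strand (ENSMUSG00000038805). Its level was 4.38, 6.53 and 6.01 CPM in the controls and 6.36, 5.08 and 5.64 CPM in the mutants. Every mutant lay within the range of the controls. The fitted difference was 0.02 ± 0.19 log2 units (SE), and it turned to -0.14 without control replicate 1 and to -0.06 without mutant replicate 1, while limma-voom with sample weights gave 0.29. With 129 to 228 counts per library, counting error alone gives a coefficient of variation of 8.80% in the lowest library, against 19.9% among controls. Six3os1, a long non-coding gene on the opposite strand that overlaps Six3, was more abundant, at 40.1, 39.6 and 50.8 CPM in the controls and 42.4, 44.3 and 59.9 CPM in the mutants. Its replicate 3 library was the highest of each genotype, and its difference of 0.17 ± 0.15 log2 units (SE) did not pass. How the counting used strand is not stated, so reads of Six3os1 in the Six3 count cannot be told apart.

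Zfp503, also called Nolz1, encodes a zinc finger repressor of the developing striatum. It lies on chromosome 14, 21983959 to 21989601, reverse strand (ENSMUSG00000039081). Its level was 7.43, 13.9 and 10.2 CPM in the controls and 13.9, 15.8 and 15.5 CPM in the mutants. All mutants lay above all controls, but control replicate 2 at 13.86 CPM and mutant replicate 1 at 13.92 CPM were nearly level. Non-overlap of this kind in the same direction was seen in 3.19% of tested genes, and in 3.70% in the other direction. This is a log2 fold change of 0.53 ± 0.21 (SE), or a 1.44-fold difference, with an interval from 1.04-fold to 1.99-fold before adjustment. The unadjusted p was 0.0316 and the adjusted p 0.9999 by edgeR's quasi-likelihood test, so the difference did not pass.

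Because all mutants lay above all controls, leaving out or reweighting libraries could hardly turn the direction of Zfp503. Its sign was the same in all 16 alternative fits, which reuse these counts, so this is no separate support. The log2 fold change ranged from 0.33 to 0.77 and the unadjusted p was under 0.05 in 11. From 179 to 1909 genes were at that level over the 16 fits. The size rested on control replicate 1, without which it was 0.33, and on control replicate 2, without which it was 0.77. Between libraries of the same number, which the labels do not name as pairs, the mutant was higher by 0.90, 0.19 and 0.60 log2 units in replicates 1, 2 and 3. The control spread was wide, with a coefficient of variation of 30.7% against 6.70% among mutants. Counting error gives 6.35% in the lowest library, control replicate 1 with 248 counts. With each library's trend in GC content and transcript length removed, the log2 fold change was 0.45. The neighbouring transcript C130012C08Rik starts 2835 bases away on the opposite strand and was at 2.10, 1.99 and 2.29 CPM in the controls and 2.39, 2.80 and 2.69 CPM in the mutants. Its groups were also separate by a small margin, as in 3.19% of tested genes, and its log2 fold change of 0.30 ± 0.18 (SE) did not pass.

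Rarb encodes retinoic acid receptor beta, a ligand-activated factor of striatal differentiation whose promoter element is printed above. The gene is on chromosome 14, 16430839 to 16819156, reverse strand (ENSMUSG00000017491). Rarb stood at 18.3, 18.9 and 14.5 CPM in the controls and at 20.1, 19.1 and 15.6 CPM in the mutants. Between libraries of the same number, not named as pairs, the mutant was higher by 0.14, 0.01 and 0.10 log2 units, and the groups overlapped widely. The log2 fold change was 0.08 ± 0.15 (SE) and turned to -0.02 without control replicate 3. Replicate 3 was the lowest library in both genotypes, by a log2 difference of -0.36 in the control and -0.33 in the mutant against replicates 1 and 2. The 3′ end of Rarb overlaps Top2b on the opposite strand, which stood at 595 CPM or more, so reads of Top2b in the Rarb count cannot be told apart.

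Other genes of the retinoic acid pathway were read from a list of 17, of which 16 were tested. None passed, 12 lay above 0 and the median log2 fold change was 0.09. For this list and the lists below, the share above 0 over all tested genes was 47.5% and the median -0.01. Crabp1, which encodes a cytoplasmic carrier of retinoic acid, stood at 5.21, 4.86 and 6.30 CPM in the controls and 7.03, 7.44 and 6.56 CPM in the mutants. Its groups were separate by a small margin, as in 3.19% of tested genes, with a log2 fold change of 0.36 ± 0.15 (SE). Aldh1a3, the gene for the retinoic acid synthesis enzyme of the lateral ganglionic eminence, averaged 5.04 ± 0.895 and 5.72 ± 0.78 CPM in controls and mutants (SD, n = 3), which overlap. Aldh1a1, another synthesis enzyme gene, was low and uneven, at 0.66 ± 0.34 and 1.88 ± 1.77 CPM (SD, n = 3), with an estimate of 1.54 ± 0.82 log2 units (SE).

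Bcl11b, also called Ctip2, encodes a zinc finger protein that striatal projection neurons need for their differentiation and that also marks subcerebral neurons of the cortex. It lies on chromosome 12, 107910403 to 108003602, reverse strand (ENSMUSG00000048251). Bcl11b was at 274, 343 and 290 CPM in the controls and 344, 332 and 332 CPM in the mutants. The mutants were tightly grouped, with a coefficient of variation of 2.06% against 11.9% in controls, and control replicate 2 lay among them. Its fitted difference was 0.15 ± 0.10 log2 units (SE), from -4.92% to 29.6% as a 95% interval of the change. It stayed above 0 in all 16 alternative fits, from 0.08 without control replicate 1 to 0.25 without control replicate 2, and did not pass in any. Markers of cortical projection neurons, 12 of 12 tested, summed to 1130.5 to 1362 CPM in the controls and to 1168 to 1265 CPM in the mutants. The part of cortical neurons in the Bcl11b value was not tested.

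Foxp1 and Foxp2 encode forkhead proteins that bind DNA as dimers and can pair with each other. Foxp1 is on chromosome 6, 98925338 to 99522721, reverse strand (ENSMUSG00000030067), and Foxp2 on the same chromosome, 14901349 to 15441977, forward strand (ENSMUSG00000029563). Foxp1 stood at 134, 156 and 105 CPM in the controls and at 143, 129 and 109 CPM in the mutants. Every mutant lay within the control range, and replicate 3 was lowest in each genotype. Its fitted difference was -0.06 ± 0.15 log2 units (SE). Without control replicate 2 this was 0.08, and leaving out control replicate 3 gave -0.19. Gm20696, an annotated gene that overlaps Foxp1 on the same strand, averaged 14.9 and 13.5 CPM in controls and mutants, so the counts of this pair are uncertain.

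Foxp2 had 148, 150 and 119 CPM in the controls and 143, 103 and 143 CPM in the mutants. Mutant replicate 2 was the lowest library and control replicate 3 the next, while the other 4 lay within 143 to 150 CPM. The log2 fold change was -0.10 ± 0.15 (SE), and without mutant replicate 2 it was 0.04. With only replicates 1 and 2 it was -0.27, also short of the threshold. Mutant replicate 2 also held the lowest sum of thalamic and hypothalamic markers, 325 CPM over 14 of 14 tested genes, where the other mutants held 377 and 426 CPM and the controls 346 to 393.5 CPM. In that library the thalamic genes Rora and Tcf7l2 were at 45.2 and 60.8 CPM, each the lowest of the 6, a pair named after its values were seen. Lhx9, Sim1, Shox2 and Nkx2-2 were also at their lowest there, at 60.1, 12.5, 5.75 and 1.06 CPM. The other genes of the list were not at their lowest in that library. Foxb1, at 2.48 CPM, was at its highest there, and Irx1, at 4.29 CPM, was above all controls. Gbx2 and Lhx2 were at 8.07 and 96.1 CPM, each above 2 controls. The part of thalamic RNA in the Foxp2 value was not tested.

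Of the direct pathway factors, Ebf1 encodes a helix-loop-helix protein that guides the differentiation and axons of striatonigral neurons. It lies on chromosome 11, 44617317 to 45008091, forward strand (ENSMUSG00000057098). Ebf1 was at 67.5, 72.0 and 67.4 CPM in the controls and 73.2, 64.0 and 75.7 CPM in the mutants. The mutants lay on either side of the controls, and the log2 fold change was 0.04 ± 0.09 (SE), with an interval from -11.0% to 18.8%. Without mutant replicate 3 it was -0.01 and with only replicates 1 and 2 it was -0.02. The antisense gene Gm12158 within Ebf1 averaged 4.45 and 4.30 CPM in controls and mutants.

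Isl1 encodes a LIM-homeodomain protein of direct pathway neurons, which forebrain cholinergic and hypothalamic neurons also make. It lies on chromosome 13, 116298281 to 116309689, reverse strand (ENSMUSG00000042258). Isl1 was at 44.0, 44.7 and 48.8 CPM in the controls and 47.5, 45.9 and 66.2 CPM in the mutants. Mutant replicate 3 stood well above all others, and the other 5 libraries lay within 44.0 to 48.8 CPM. Isl1 had a log2 fold change of 0.22 ± 0.14 (SE), from -7.18% to 45.2%, and without mutant replicate 3 it was 0.03. Between libraries of the same number, not named as pairs, the mutant was higher by 0.11, 0.04 and 0.44 log2 units. In the same library some genes of neighbouring regions were at their highest: Lhx8, a factor of cholinergic neurons, at 16.9 CPM, Nkx2-1, of the medial eminence and hypothalamus, at 17.7 CPM, and Sim1, of the hypothalamus, at 22.5 CPM. Among further hypothalamic genes, Otp was also at its highest there, at 3.54 CPM. Pomc and Nr5a1 were not, at 2.54 and 2.14 CPM against 2.82 and 2.19 CPM in control replicate 3. The defining cholinergic genes Chat and Slc18a3 were near 0, at 0.18 and 0.26 CPM in mutant replicate 3. The list of medial eminence and cholinergic genes summed to 361 CPM in that library, against 300 and 315 CPM in the other mutants and 299 to 342 CPM in the controls, with 12 of 12 tested. Most of that sum was Sox6, at 223 CPM in mutant replicate 3 against 169 and 156 CPM in the other mutants, and at 217 CPM in control replicate 3. The interneuron genes Lhx6, Sst and Npy went the other way, at 48.5, 9.03 and 4.39 CPM in mutant replicate 3, each below both other mutants. The part of such cells in the Isl1 value was not tested.

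Ikzf1, on chromosome 11, 11685003 to 11772926, forward strand (ENSMUSG00000018654), encodes Ikaros, a zinc finger protein of blood lineages and of enkephalin neurons of the indirect pathway. It was the lowest member per length, at 4.65, 4.42 and 3.19 CPM in the controls and 6.29, 4.57 and 3.02 CPM in the mutants. Mutant replicate 1 was the highest and the replicate 3 libraries were the 2 lowest. Between genotypes the difference was 0.19 ± 0.27 log2 units (SE), ranging from -0.10 without mutant replicate 1 to 0.42 without mutant replicate 3. The counts were 82 to 179 per library, and the 95% interval, from -25.7% to 74.3%, was the widest of the members. Markers of microglia and other blood cells summed to 52.4 to 67.1 CPM in the controls and 52.2 to 66.4 CPM in the mutants, with 11 of 13 genes tested. The T cell gene Cd3e averaged at most 0.0088 CPM in either genotype, whereas the myeloid gene Csf1r averaged 19.6 CPM in controls. That list was also lowest in the replicate 3 libraries, as Ikzf1 was, by a median log2 difference of -0.27 in the control and -0.35 in the mutant. The striatal effector genes were lower there too, by -0.49 and -0.60. The parts of microglia and of striatal neurons in the Ikzf1 value were not tested.

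**Figure D3:**
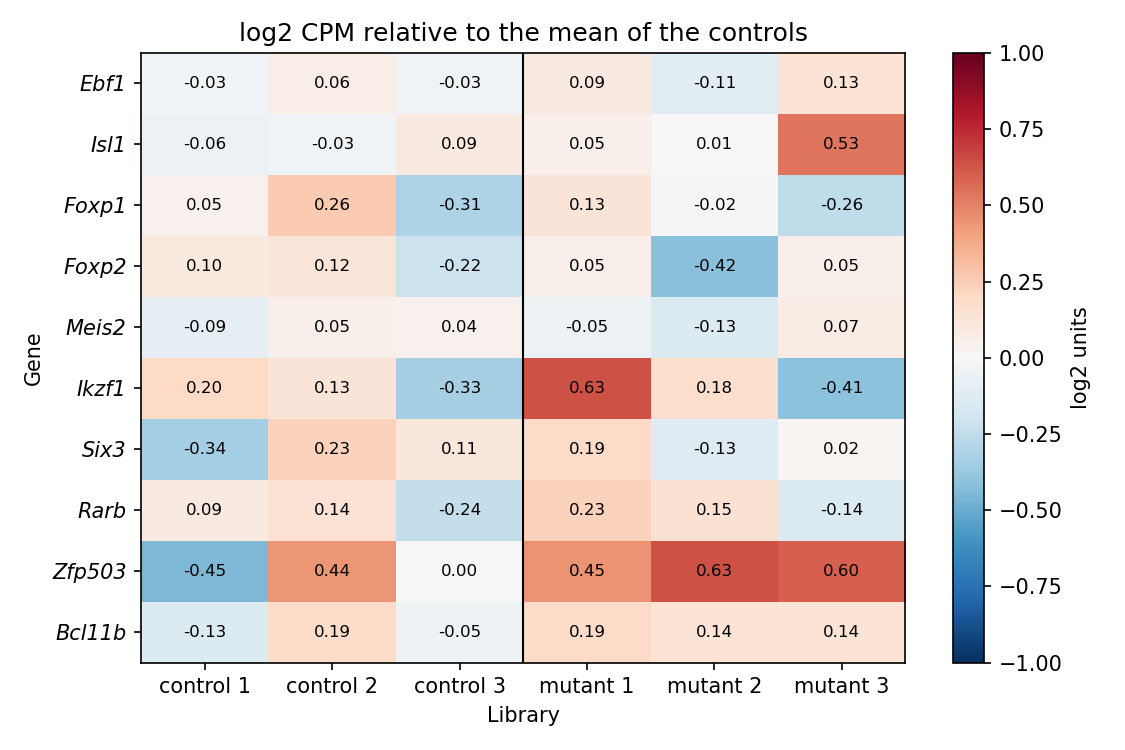
Log2 CPM of each member (rows) in each library (columns) relative to the mean of the 3 controls, with color from lower (blue) to higher (red) and the value printed in each cell. Zfp503 is above the control mean in all 3 mutants and Isl1 is highest in mutant replicate 3, while Meis2 and Ebf1 vary little.

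The replicate 3 libraries also set some members apart. Foxp1, Ikzf1, Rarb and Bcl11b were lower in replicate 3 than in replicates 1 and 2 in both genotypes, although Bcl11b only by -0.08 and -0.02 log2 units. Ikzf1 had the largest of these differences, at -0.50 in the control and -0.81 in the mutant, and Foxp1 had -0.46 and -0.31. Isl1, Meis2 and Zfp503 were higher in both genotypes, Isl1 by 0.14 and 0.50. Ebf1, Foxp2 and Six3 differed in sign between genotypes, Foxp2 with -0.33 in the control and 0.24 in the mutant. Each of these values rests on 1 library against 2 and has no test.

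**Figure D4:**
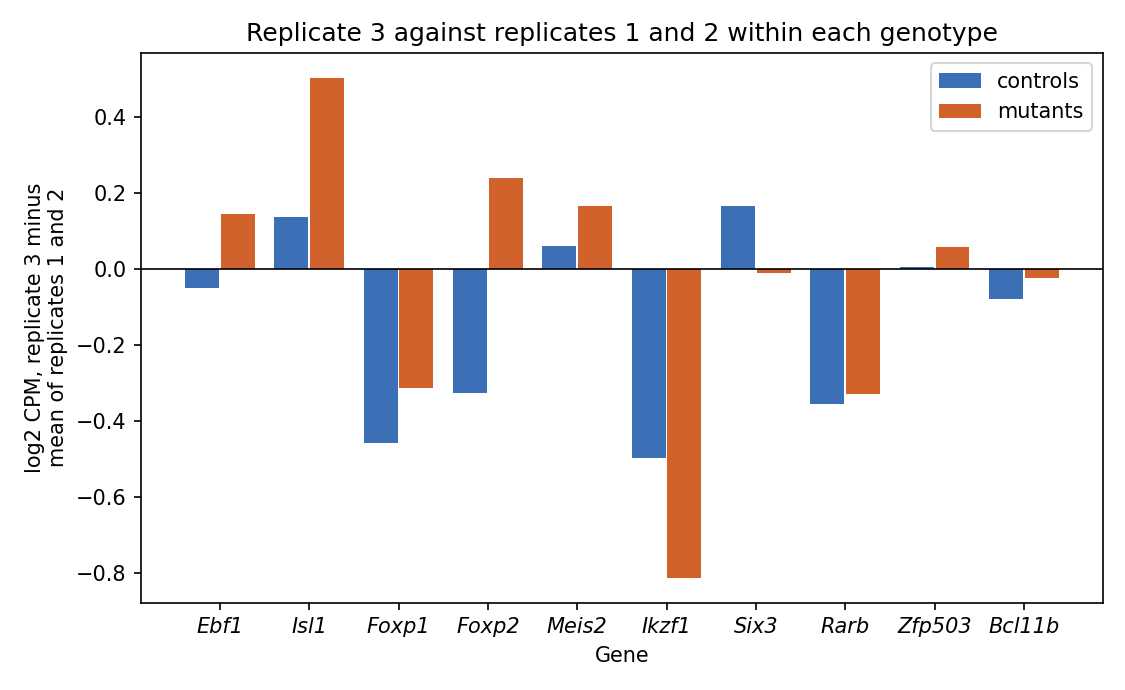
Log2 CPM of replicate 3 minus the mean of replicates 1 and 2 (vertical axis) for each member, with a bar for controls and a bar for mutants. Foxp1, Ikzf1 and Rarb are below 0 by 0.31 or more in both genotypes, and Isl1 is above 0 in both.

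The genes most like the 2 members that varied most, Zfp503 and Ikzf1, were found by the root mean square distance of log2 CPM, relative to each gene's own mean, over the 6 libraries. Candidates were genes averaging at least 10 CPM. For Zfp503 they were Irf2bpl at a distance of 0.08 log2 units, Jund, an AP-1 subunit gene, at 0.11, and the growth cone gene Basp1 at 0.11. Their GC contents were 60.0%, 67.1% and 56.4%, beside 58.9% for Zfp503 and a median of 49.7% for tested protein-coding genes. The part of GC content in this likeness was not tested. Irf2bpl had 54.4, 99.1 and 68.7 CPM in the controls and 98.7, 104 and 96.7 CPM in the mutants, the same order of low and high controls as Zfp503. For Ikzf1 they were the heparan sulfate sulfotransferase gene Hs3st5 at 0.07, the splicing factor gene Srsf12 at 0.13 and the growth factor binding protein gene Igfbp3 at 0.13. Hs3st5 had 13.5, 13.4 and 8.46 CPM in the controls and 16.9, 12.9 and 9.07 CPM in the mutants, again lowest in replicate 3. Among the members themselves Ebf1 and Meis2 were closest, at 0.06, and Ikzf1 and Zfp503 farthest apart, at 0.52. This distance depends on how much each gene varies as well as on its pattern. The log2 CPM of Ebf1 and Meis2 ranged least, by 0.24 and 0.21, and that of Ikzf1 and Zfp503 most, by 1.04 and 1.08.

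The effector genes of the same neurons, such as dopamine receptor, neuropeptide and second messenger genes, gave 21 tested of 21, with 15 above 0, none past the threshold and a median log2 fold change of 0.06. Tac1, which encodes the substance P precursor of direct pathway neurons, was at 8.00, 7.38 and 5.80 CPM in the controls and 8.37, 9.69 and 8.04 CPM in the mutants. These were separate by a narrow margin, as in 3.19% of tested genes, with 0.30 ± 0.16 (log2, SE). Penk, the enkephalin precursor of the indirect pathway, averaged 1.95 ± 0.29 and 2.29 ± 0.92 CPM (SD, n = 3). Drd1 and Drd2, the dopamine receptor genes that define the direct and indirect pathways, had log2 fold changes of 0.09 ± 0.28 and 0.04 ± 0.37 (SE). Drd1 was at 10.9, 10.6 and 6.40 CPM in the controls and 11.8, 11.6 and 6.08 CPM in the mutants. The replicate 3 library was the lowest of each genotype for Drd1, as for Foxp1, Rarb and Ikzf1. Rasd2 and Gpr6 had 0.32 ± 0.31 and 0.30 ± 0.33 (SE).

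Upstream of the members, 12 of 12 factors of lateral ganglionic eminence progenitors were tested, with 7 above 0, a median of 0.03 and none past the threshold. Sp9, a zinc finger gene needed for indirect pathway neurons, averaged 14.3 ± 4.12 and 17.8 ± 1.30 CPM (SD, n = 3), a log2 fold change of 0.33 ± 0.19 (SE). Tshz1, a zinc finger gene of the dorsal part of the eminence, had 0.13 ± 0.10 (SE). Gsx1 and Gsx2, the homeobox genes of its progenitors, were low, at 0.70 and 2.57 CPM in controls, with -0.37 ± 0.34 and -0.11 ± 0.31 (SE). Etv1 had -0.10 ± 0.13 (SE).

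Paralogues of the members gave 18 tested of 21, with 11 above 0, a median of 0.07 and none past the threshold or at an unadjusted p under 0.05. Isl2, Foxp3 and Ikzf3 had too few counts, averaging at most 0.09 CPM in either genotype. Bcl11a, the paralogue of Bcl11b, averaged 360 and 342 CPM in controls and mutants, with -0.07 ± 0.09 (log2, SE). Meis1 had -0.09 ± 0.11 and Meis3 had 0.19 ± 0.13 (SE). Zfp703, the paralogue of Zfp503, averaged 3.99 ± 1.32 and 4.53 ± 0.96 CPM (SD, n = 3), with overlapping groups and 0.19 ± 0.27 (log2, SE). Among the other families, Ebf2 had -0.12 ± 0.14, Foxp4 0.15 ± 0.19, Ikzf5 -0.12 ± 0.11, Six5 0.29 ± 0.21 and Rarg 0.16 ± 0.17 (SE).

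Of the marker lists for other cells and regions, none held a gene past the threshold. Sox2, a progenitor gene, and Irx1, a diencephalic gene, were at an unadjusted p under 0.05 by edgeR, with log2 fold changes of 0.40 ± 0.16 and 0.54 ± 0.23 (SE). The smallest p of the other lists belonged to the cortical gene Neurod2 at 0.31 ± 0.15, the cholinergic gene Chat at -0.79 ± 0.36, the complement gene C1qc at 0.32 ± 0.19, the globin gene Hbb-bt at 0.13 ± 0.09 and the matrix gene Dcn at 0.17 ± 0.10 (SE). The Chat value rests on few counts, 13, 10 and 14 in the controls and 7, 6 and 5 in the mutants.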

How the data were processed

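The authors deposited unnormalized counts of reads for each gene, in a table of 6 libraries. Per the submitters' processing notes, bcl2fastq 2.17.1.14, HISAT2, SAMtools 1.9 and HTSeq 0.9.1 were used, with mouse GRCm38 per the labels' protocols. The sources used here do not give HTSeq's strand setting. Per the labels' protocols, total RNA was depleted of ribosomal RNA and libraries marked the strand. Symbols, positions and lengths came from GENCODE M21 (GRCm38), matching 32888 of 33084 identifiers. Library totals ran from 24646616 to 38315004 counts.

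Genes were kept by filterByExpr (count minimum 10, total minimum 15) and compared with edgeR 4.0.16 (TMM, quasi-likelihood F test with robust estimation, no covariate) in R 4.3.3, with Benjamini-Hochberg adjustment over all 19616 tested genes and a threshold of 0.05. Fold changes are mutant over control, and standard errors come from the F statistic. Log2 CPM used a prior count of 2. The fit was tested on simulated data, which had no shift of the replicate 3 libraries, so that test does not cover such a shift. RPKM divides CPM by the merged exon length. Figures used matplotlib 3.10.9. Alternatives were RLE scaling, DESeq2 1.42.0, limma 3.58.1 (voom, with and without sample weights), no filter, a replicate block, a term for replicate 3, replicates 1 and 2 alone, each library left out, and GC content and length trends removed, without and with the block.

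The labels number replicates 1 to 3 in both genotypes. Deviations from the group means correlated across 16748 genes between same-numbered libraries (r = 0.34, 0.11 and 0.47), so the numbers were treated as pairs in the blocked fit, although mutant replicate 1 correlated more with control replicate 2 (0.49).

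The members and gene lists were chosen with earlier results of these data known. Named genes were the members, Dyrk1a, genes that overlap a member or start within 5000 bases of its start, up to 4 genes per list with the smallest p, and the 3 genes most like each of the 2 most variable members. Other genes, such as Drd1, Drd2, Penk, Bcl11a, Zfp703 and the cell type markers given beside a member, were chosen after their values were seen. Hoxa4 and Hoxa5, of the hindbrain list, were not analysed here. Some genes that this rule names are not reported here.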

Additional observations from a re-analysis of the deposited data

How the results depend on the processing

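In all 16 alternative fits 0 members were called, and the smallest adjusted p of a member was 0.385, in limma-voom with sample weights. Over all genes 0 were called except with only replicates 1 and 2, where 3 were (Hist1h2ag, Pisd-ps1 and Tmem181b-ps, named after their values were seen). The genes at an unadjusted p under 0.05 numbered 376, and from 179 to 1909 over the alternatives, 765 of them in the fit with the replicate block, which changed no call of a member. The median of the members ran from -0.0047 to 0.14 when 1 library was left out and from 0.06 to 0.12 otherwise. Isl1, Bcl11b and Zfp503 kept their direction in all 16 fits, which reuse the same libraries. Ebf1 turned to -0.019 with only replicates 1 and 2. With GC content and length trends removed, Foxp1 turned to 0.0082, Meis2 to 0.019 and Dyrk1a to 0.016, and with the replicate block added these were 0.013, 0.020 and 0.014. With sample weights Dyrk1a turned to 0.047, Six3 moved from 0.02 to 0.29 and Zfp503 from 0.53 to 0.75. Leaving out 1 library gave ranges of -0.0052 to 0.11 for Ebf1, -0.19 to 0.081 for Foxp1, -0.19 to 0.044 for Foxp2, -0.090 to 0.012 for Meis2, -0.097 to 0.42 for Ikzf1, -0.14 to 0.13 for Six3, -0.020 to 0.19 for Rarb and -0.053 to 0.052 for Dyrk1a. The cause of these turns was not tested. The median standard error of the members was 0.15 log2 units, which limits what a single gene can show.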
